A study of Homo sapiens with 12 samples.

Results

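The transcripts described here belong to 50 genes of the TGF-beta and BMP signalling pathways, chosen by gene symbol from a list of pathway members. This list and the other gene lists used here were chosen with earlier results of these data known. They comprised 11 ligands, 10 receptors, 6 signal-transducing SMADs, 2 inhibitory SMADs, 4 intracellular regulators, 5 proteins of the latent ligand complex or its activation, 6 extracellular or membrane inhibitors and 6 target genes, and all 50 were found among the 55765 gene symbols counted. They were measured by total RNA-Seq after ribosomal RNA depletion in SH-SY5Y cells, a neuroblastoma line that is a cloned subline of SK-N-SH, the source named in the labels. Cells of all 12 libraries were differentiated towards a neuron-like state with all-trans retinoic acid (ATRA, 10 μM, 7 days). In the co-treatment experiment, 3 libraries came from cells given hydrogen peroxide (H2O2) together with ATRA for the 7 days and 3 from cells given ATRA without H2O2. In the pre-treatment experiment, 3 libraries came from cells given H2O2 from 72 h before ATRA and 3 from controls without H2O2. The H2O2 dose is stated as 10 mM in the series text and as 10 μM in the methods of the study. Nothing in the labels says that replicates were separate cultures, so p-values measure the spread between these samples, which may be technical.

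Ligands of this superfamily bind pairs of type I and type II serine/threonine kinase receptors. TGF-beta and activin receptors phosphorylate SMAD2 and SMAD3, BMP receptors phosphorylate SMAD1, SMAD5 and SMAD9, and both groups enter the nucleus with SMAD4. SMAD6 and SMAD7 are inhibitory SMADs that are themselves induced by the pathway and form a negative feedback loop. The ID genes, which encode helix-loop-helix proteins that lack a DNA-binding region and hold back differentiation factors, are textbook direct targets of BMP signalling. In the sympathetic lineage, from which neuroblastoma arises, BMPs are known as inducers of the noradrenergic programme.

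The upstream sequences of the 6 members on which the comparisons turn most are shown because SMADs bind short DNA motifs. They are the inhibitory SMADs and the 3 ID genes that were called in co-treatment, and the ligand TGFB2, which had the smallest p in pre-treatment over 6 libraries. Each is the 250 bases before the RefSeq start (GRCh38.p14), 5′ to 3′ on the strand of the gene, and capitals mark the SMAD box CAGAC on either strand. For SMAD7, which has 3 annotated starts, the window with the most matches is given.
ID1 (chr20:31605039-31605288, plus strand): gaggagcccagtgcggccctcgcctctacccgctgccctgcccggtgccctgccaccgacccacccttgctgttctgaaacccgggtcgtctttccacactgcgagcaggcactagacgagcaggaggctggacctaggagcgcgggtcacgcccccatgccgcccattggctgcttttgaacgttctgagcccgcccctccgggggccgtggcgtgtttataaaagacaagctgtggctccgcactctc
ID2 (chr2:8681806-8682055, plus strand): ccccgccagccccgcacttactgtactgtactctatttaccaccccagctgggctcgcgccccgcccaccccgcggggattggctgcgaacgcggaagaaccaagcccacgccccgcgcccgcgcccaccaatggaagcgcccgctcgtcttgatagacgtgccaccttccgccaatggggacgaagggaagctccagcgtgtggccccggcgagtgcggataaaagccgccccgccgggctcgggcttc
ID3 (chr1:23559502-23559751, minus strand): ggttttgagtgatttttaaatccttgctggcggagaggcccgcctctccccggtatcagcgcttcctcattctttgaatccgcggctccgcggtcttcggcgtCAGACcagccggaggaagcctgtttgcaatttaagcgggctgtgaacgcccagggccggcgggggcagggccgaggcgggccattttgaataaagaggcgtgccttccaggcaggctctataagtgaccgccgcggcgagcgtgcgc
SMAD6 (chr15:66701986-66702235, plus strand): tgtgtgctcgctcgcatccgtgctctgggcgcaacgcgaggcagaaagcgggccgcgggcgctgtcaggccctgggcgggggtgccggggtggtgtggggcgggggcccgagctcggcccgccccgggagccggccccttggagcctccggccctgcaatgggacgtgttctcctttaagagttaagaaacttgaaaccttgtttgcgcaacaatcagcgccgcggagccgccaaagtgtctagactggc
SMAD7 (chr18:48950966-48951215, minus strand): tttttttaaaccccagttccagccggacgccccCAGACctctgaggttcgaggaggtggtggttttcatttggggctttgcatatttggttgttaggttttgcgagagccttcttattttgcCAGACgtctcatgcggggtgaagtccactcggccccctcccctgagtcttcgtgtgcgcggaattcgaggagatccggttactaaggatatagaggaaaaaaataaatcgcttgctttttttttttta
TGFB2 (chr1:218345086-218345335, plus strand): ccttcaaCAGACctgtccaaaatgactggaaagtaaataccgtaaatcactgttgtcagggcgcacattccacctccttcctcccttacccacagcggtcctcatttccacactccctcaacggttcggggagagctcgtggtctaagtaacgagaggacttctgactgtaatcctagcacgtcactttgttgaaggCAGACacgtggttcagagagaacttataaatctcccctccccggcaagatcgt
The SMAD box was present 2 times in the TGFB2 stretch, 2 times in that of SMAD7 and 1 time in that of ID3, and these letters were not in the stretches of ID1, ID2 and SMAD6. The GC-rich SMAD site GGCGCC was in none of the 6 stretches. Over 300-base windows (250 bases before to 50 after the start), 46 members had 78 windows, of which 41 (52.6%) held CAGAC on either strand, against 45.26% of all 35116 promoter windows. GGCGCC was in 20 of the 78 windows (25.6%, against 19.22% of all windows), and no member window held the retinoic acid response element, a direct repeat with a 5-base spacer (0.005695% of all windows). The searched motifs share no run in which all of 1 lies inside another, and a match is a description of letters, not a binding site.

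Libraries held 27576276 to 98287391 counts on genes. Control replicate 3 of the pre-treatment experiment stood apart from the other 2 controls of its group: reads assigned outside genes per counted read were 0.800 and 0.830 in replicates 1 and 2 and 0.200 in replicate 3, against 0.343 to 0.462 in the 3 treated libraries. Small structured RNAs took 1.59% and 2.88% of counts in replicates 1 and 2 and 17.6% in replicate 3, against 13.3% to 15.1% in the treated libraries. The clustering picture of the study shows pre-treatment control replicates 1 and 2 but not 3, and therefore pre-treatment was tested over all 6 libraries and again without this library. Neuroblastoma markers fitted the label, with HAND2, GATA2 and ISL1 above 100 CPM in each library, while TH did not exceed 0.263 CPM. The summed level of 10 noradrenergic markers ran from 3028 to 3911 CPM in co-treatment controls and from 2137 to 2839 CPM in co-treated libraries, and from 2578 to 4047 CPM in pre-treatment controls and from 1698 to 2436 CPM in pre-treated libraries, without overlap in either experiment. The lower treated sum was not particular to that list. Sums of 5 neuronal markers were 1547 to 1564 CPM in co-treatment controls and 1165 to 1507 CPM in co-treated libraries. In pre-treatment they were 1302 to 1582 CPM in controls and 1090 to 1287 CPM in treated libraries, again without overlap. The sums of 10 mesenchymal markers overlapped between control and treated groups (285 to 426 against 342 to 365 CPM in co-treatment, 339 to 453 against 410 to 446 CPM in pre-treatment), and 5 Schwann cell markers summed to 5.87 to 8.08 CPM over all libraries. In bulk RNA, fewer cells of a type and less RNA per cell cannot be told apart.

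Of the 50 members, 33 were above 5 CPM (read counts brought to a common library total with the trimmed mean of M-values over all 12 libraries) in every library and 8 stayed under 1 CPM in every library. Levels are compared between genes only as CPM per kb of exon. On that scale the targets ID2 (76.3, median of 12 libraries) and ID3 (70.0) and the BMP-pathway SMAD9 (69.7) were the most abundant, and the ranges of these 3 over the libraries overlapped. Next came ID1 (32.4), the pseudoreceptor BAMBI (21.2), the type I TGF-beta receptor TGFBR1 (21.1) and the SMAD co-repressor SKIL (19.6). The partner receptor TGFBR2, in contrast, had a median of 0.241 CPM per kb. Ligand transcripts were low, from 6.62 for GDF15, a divergent stress-induced ligand, through 3.51 for INHBA, the beta subunit of activin A, and 0.385 for TGFB2 to 0.205 for TGFB3, 0.0584 for BMP6, 0.00674 for INHBB and 0 for BMP4. INHBB (30 counts summed over the 12 libraries), FST (9), BMP4 (7), the co-receptor TGFBR3 (7) and the BMP antagonist NOG (3) failed the low-count filter in every fit. CTGF, a matricellular target gene also named CCN2, passed it in all but the pre-treatment fit over 6 libraries. Members tested therefore numbered 45 in co-treatment, 44 in pre-treatment over 6 libraries and 45 without control replicate 3.

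**Figure D1:**
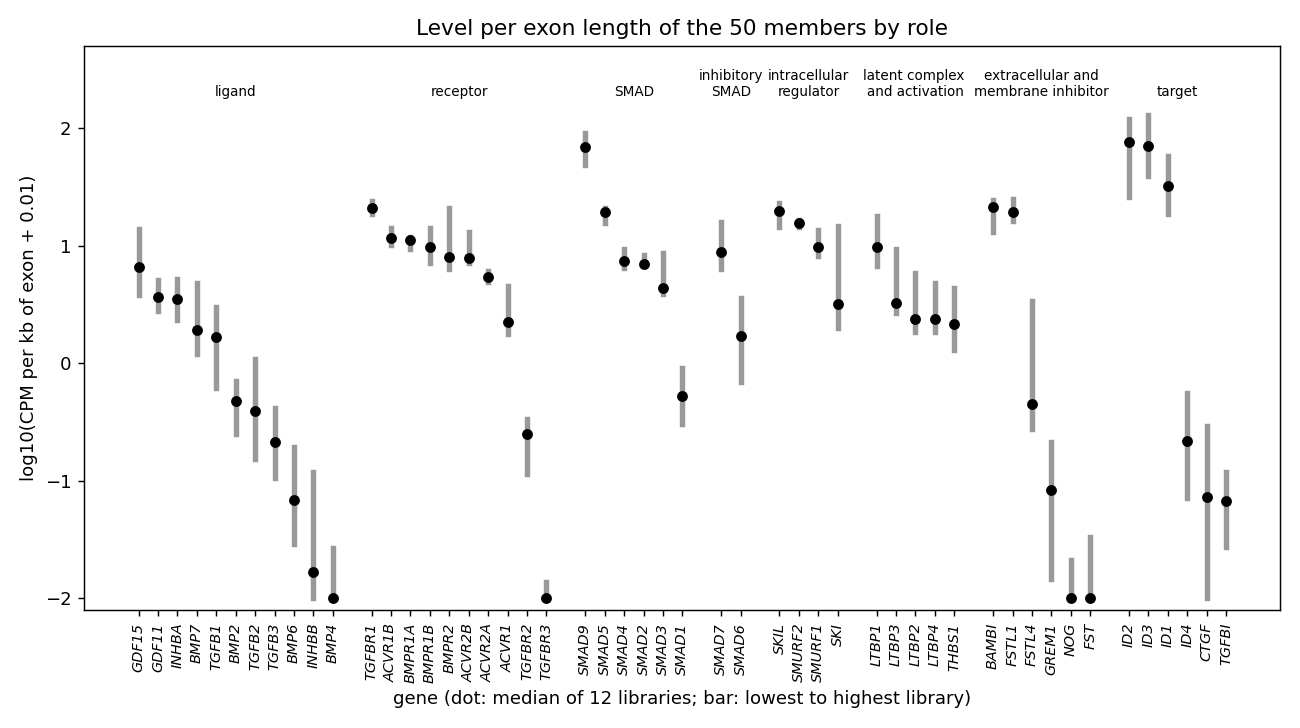
Level of the 50 members by role, as log10 of CPM per kb of exon plus 0.01; dots are medians and grey bars run from the lowest to the highest of the 12 libraries. ID2, ID3 and SMAD9 sit highest and BMP4, TGFBR3, NOG and FST have a median of 0.

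Co-treatment addressed how H2O2 present during differentiation changes transcript levels. The inhibitory SMADs SMAD6 and SMAD7, the BMP targets ID1, ID2 and ID3 and the ligand GDF15 rose in co-treated cells, by 1.66- to 2.78-fold, and the ligand subunit INHBA and the follistatin-like FSTL4 fell. These 8 were 17.8% of the 45 members tested, against 0.598% of all 22089 genes tested (FDR below 0.05 and absolute log2FC above 0.6, edgeR quasi-likelihood test). The 6 that rose compare with 0.335% of all genes and the 2 that fell with 0.263%. Because the members were chosen with earlier results of these data known, these shares describe the list and do not test the pathway. No receptor, no signal-transducing SMAD, no intracellular regulator and no latent complex gene passed the test. The median log2FC of the 45 members was -0.06, beside -0.00096 for all genes. In 16 members (35.6%) the 3 treated libraries did not overlap the 3 controls, against 14% of all genes, with 9 above (6.58% of all genes) and 7 below (7.37%).

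Both inhibitory SMADs rose. SMAD6, which mainly limits BMP signalling (chr15:66994574-67075187, hg19), measured 14.1, 7.85 and 8.45 CPM in control replicates 1 to 3 and 24.9, 28.9 and 30.6 CPM in co-treated replicates 1 to 3. Every treated library lay above every control, and the rise was 2.78-fold (log2FC 1.48, SE 0.21, FDR = 0.00749). SMAD7, which limits both TGF-beta and BMP receptors (chr18:46446223-46477335), measured 38.5, 36.7 and 30.2 CPM in controls and 58.8, 54.3 and 62.7 CPM after co-treatment. Its groups were likewise apart, with a 1.67-fold rise (log2FC 0.74, SE 0.13, FDR = 0.0266).

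Of the 4 ID genes, 3 rose by nearly the same factor. ID1 (chr20:30193086-30194318) measured 38.5, 39.6 and 43.5 CPM in controls and 72.1, 69.2 and 64.6 CPM in co-treated libraries, ID2 (chr2:8818975-8824591) 131, 155 and 169 against 234, 266 and 253 CPM, and ID3 (chr1:23884417-23885992) 107, 114 and 103 against 194, 173 and 182 CPM. For all 3 genes each treated library was above each control. The log2 fold changes were 0.76 for ID1 (SE 0.12, FDR = 0.0119), 0.73 for ID2 (SE 0.13, FDR = 0.0282) and 0.77 for ID3 (SE 0.12, FDR = 0.0113). ID4, a low transcript here, measured 0.897, 1.17 and 0.789 CPM in controls and 0.817, 0.498 and 0.603 CPM after treatment, with overlapping groups (log2FC -0.60, FDR 0.781). The TGF-beta targets TGFBI (log2FC 0.68, FDR 0.795) and CTGF were not called. For CTGF, 61 treated counts stood against 12 control counts in all, a ratio of 4.66 (95% interval 2.49 to 9.52 for counting error only), while the fit gave log2FC 2.32, FDR 0.410.

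Among the ligands, 1 rose and 1 fell. GDF15 (chr19:18485541-18499986), which signals through the receptor GFRAL rather than through the receptors listed here, measured 13.4, 13.0 and 10.3 CPM in controls and 26.4, 17.9 and 28.9 CPM after co-treatment, and replicate 2 was the lowest treated library. The rise was 1.99-fold (log2FC 0.99, SE 0.19, FDR = 0.0366). INHBA (chr7:41706766-41745432) measured 31.3, 27.7 and 35.7 CPM in controls and 19.8, 19.4 and 20.0 CPM after co-treatment, a tight treated group below every control, and fell 1.60-fold (log2FC -0.68, SE 0.13, FDR = 0.0461). The BMP ligands BMP2 (log2FC 0.66, FDR 0.605) and BMP7 (log2FC -0.46, FDR 0.423) had non-overlapping groups but did not pass. TGFB1 and TGFB2 overlapped between groups.

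The largest relative difference among the called members was the fall of FSTL4, a secreted protein with a follistatin-like region (chr5:132532147-132948232). It measured 9.83, 6.16 and 8.12 CPM in controls and 1.99, 2.54 and 2.39 CPM after co-treatment, so that every treated library was under 3 CPM, and it fell 3.45-fold (log2FC -1.79, SE 0.23, FDR = 0.00438). The BMP antagonist GREM1 measured 0.978, 0.810 and 0.789 CPM in controls and 1.21, 1.38 and 2.16 CPM in treated libraries, without overlap but without passing the test (log2FC 0.89, FDR 0.448). BAMBI, a pseudoreceptor that lacks a kinase domain, had overlapping groups (log2FC 0.16, FDR 0.812).

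The closest receptor to the threshold was BMPR1B, a type I BMP receptor (chr4:95679106-96079599), at 79.0, 70.9 and 64.2 CPM in controls and 51.3, 49.4 and 47.0 CPM in co-treated libraries. Its groups did not overlap, but its FDR of 0.0972 did not pass (log2FC -0.53, SE 0.12). The other 8 tested receptors had log2FC between -0.16 and 0.49, the 6 signal-transducing SMADs between -0.18 and 0.13, and the 4 intracellular regulators between -0.20 and 0.17. LTBP1, which tethers latent TGF-beta to the matrix, measured 80.9, 62.1 and 57.4 CPM in controls and 50.4, 49.1 and 51.3 CPM in treated libraries (log2FC -0.41, FDR 0.387), again without overlap.

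**Figure D2:**
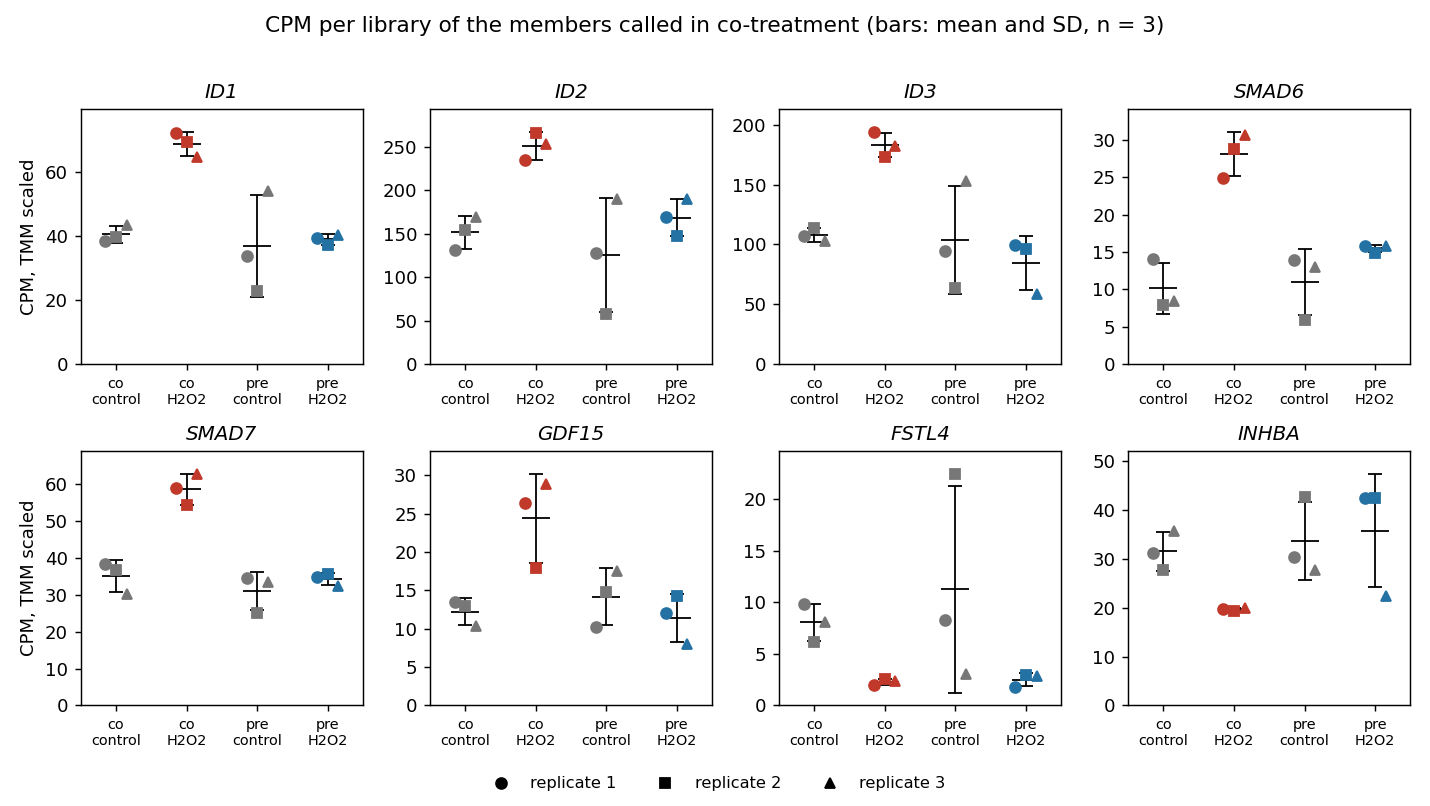
CPM per library of the 8 members called in co-treatment, in the 4 groups of both experiments; symbols mark replicates and bars the mean and SD (n = 3), on axes that start at 0. In the co-treatment groups the libraries of every panel separate, whereas in pre-treatment only SMAD6 and FSTL4 do.

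The calls depended on single libraries. Leaving out control replicate 1 kept all 8. Leaving out control replicate 3 ended the calls of SMAD7, GDF15 and INHBA, so that 5 were kept, and leaving out treated replicate 2 ended those of SMAD7, ID1, ID2 and INHBA, so that 4 were kept. Only 2 (SMAD6 and FSTL4) were kept when control replicate 2 or treated replicate 1 was removed, and 1 (FSTL4) when treated replicate 3 was. The fold changes themselves moved little in these refits: log2FC stayed between 0.73 and 0.81 for ID1, 0.72 and 0.80 for ID3, 0.64 and 0.82 for ID2, 0.64 and 0.81 for SMAD7, 1.32 and 1.80 for SMAD6, 0.85 and 1.17 for GDF15, -0.77 and -0.58 for INHBA and -1.95 and -1.61 for FSTL4. The highest FDR of a refit was 0.0488 for FSTL4, 0.0767 for SMAD6, 0.111 for ID1, 0.127 for ID3, 0.239 for ID2, 0.258 for SMAD7, 0.306 for GDF15 and 0.336 for INHBA. In 1 fit over both experiments, with a common estimate of the spread, none of the 8 passed, and without pre-treatment control replicate 3 in that fit ID1 did. With scaling by library size only, SMAD7, GDF15 and INHBA did not pass. Exons of INHBA overlap those of INHBA-AS1 and exons of ID2 those of ID2-AS1, and ID2 has an annotated pseudogene, ID2B, with which it could share reads.

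A further 82 genes of the pathway were drawn up as a list beside the 50, likewise with earlier results of these data known. Calls numbered 3 among 66 tested in co-treatment (4.55%, against 0.598% of all genes), all higher. They included MSX2, a homeobox gene that responds to BMPs (7.64, 4.71 and 4.68 CPM in controls, 20.2, 18.4 and 24.2 CPM in treated libraries, log2FC 1.88, FDR 0.00166), and the cell cycle inhibitor CDKN1A (122, 132 and 116 against 275, 223 and 288 CPM, log2FC 1.09, FDR 0.00349). In both, every treated library was above every control. Of the marker lists, 1 of 9 tested noradrenergic genes was lower in the same comparison and 1 of 9 tested mesenchymal genes higher (VIM, log2FC 1.16, FDR 0.0272). None of the 5 neuronal and 5 Schwann cell markers was called, and the part of these differences in the members' values was not tested.

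Pre-treatment addressed how H2O2 given before differentiation changes the same transcripts. Over all 6 libraries none of the 44 tested members passed the test (FDR below 0.05 and absolute log2FC above 1), and 0.0242% of all 24743 genes did. At an unadjusted p below 0.05 there were 14 of the 44 members, against 2776 of all 24743 genes (11.2%). Of these members 2 were higher (4.03% of all genes) and 12 lower (7.19%). The median log2FC of the members was -0.10, beside -0.0066 for all genes. In 15 members (34.1%) the groups did not overlap, against 16.4% of all genes, 5 with the treated libraries above (7.97%) and 10 below (8.47%). Other tools called some members on the same 6 libraries, and also more of all genes. DESeq2 called 4 members (TGFB2, GREM1, SKI and FSTL4), beside 448 of all 24743 genes. The edgeR exact test called 3 members (TGFB2, GREM1 and SKI), beside 240 of all 24743 genes.

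Without control replicate 3, 8 members were called, 3 higher (TGFB2, GREM1 and CTGF) and 5 lower (BMPR2, SKI, LTBP2, LTBP3 and FSTL4). That share, 17.8% of 45, stands beside 11.2% of all 26350 genes, with 2.98% of all genes called higher and 8.23% lower. CTGF passed the filter in this fit only through treated replicates 1 and 2 (0.342 and 0.352 CPM). It had 0.0181 and 0 CPM in control replicates 1 and 2, so only a higher call was possible for it. A further 7 members had an FDR below 0.05 with a smaller fold: BAMBI and ID2 higher, and ACVR1, SMAD3, SMAD9, SMURF1 and BMPR1B lower. When a further library was left out, the FDR reached 0.149 for ID2, 0.0941 for BMPR1B and 0.0665 for SMURF1 and stayed below 0.05 for the other 4. These 15 compare with 26.1% of all genes at that FDR, the 5 higher with 13.2% and the 10 lower with 12.8%. Non-overlap was common in this 2 against 3 comparison, at 64.4% of members and 57.2% of all genes.

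**Figure D3:**
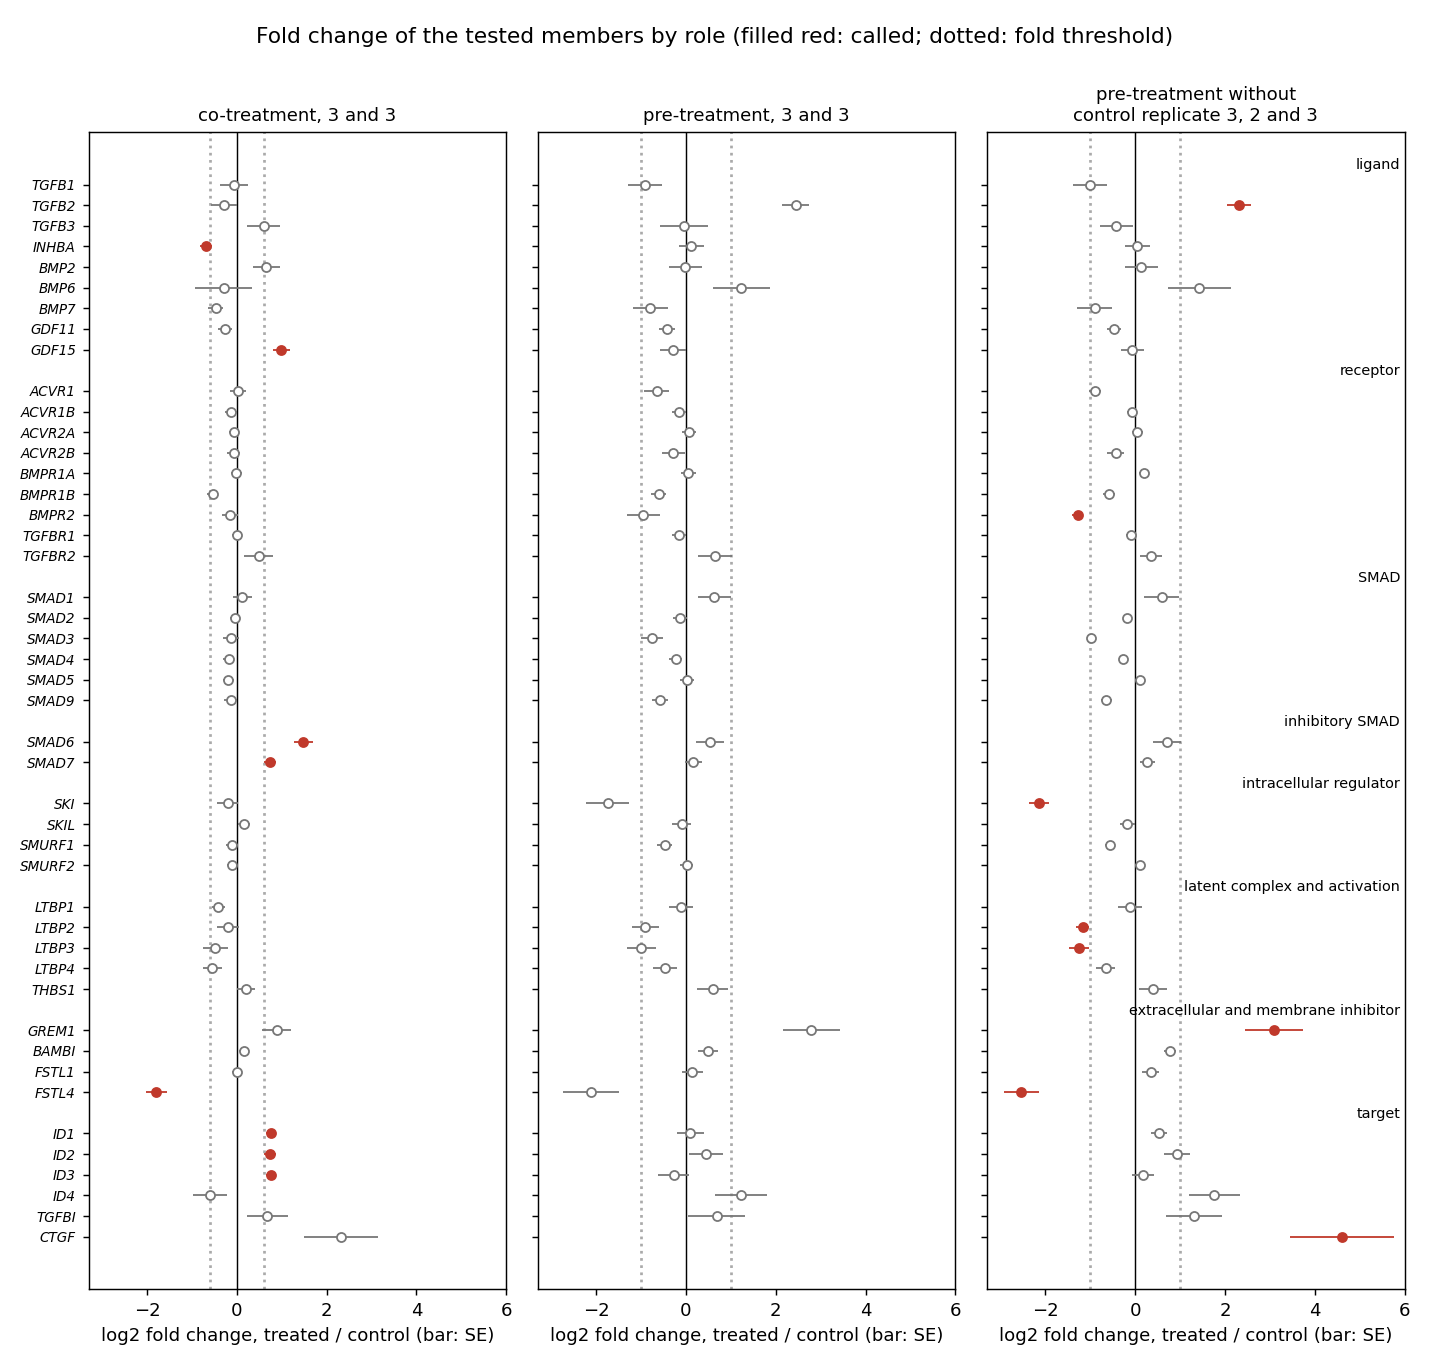
Log2 fold change with SE (bars) of each tested member, grouped by role, in co-treatment, pre-treatment over 6 libraries and pre-treatment without control replicate 3; filled red points were called and dotted lines mark the fold threshold of each experiment. Calls in co-treatment fall on SMAD6, SMAD7, ID1 to ID3, GDF15, INHBA and FSTL4, none is made over the 6 pre-treatment libraries, and 8 appear without control replicate 3.

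TGFB2, the TGF-beta ligand encoded at chr1:218518678-218617961, gave the smallest p of the members over the 6 libraries. It measured 1.02, 1.62 and 0.868 CPM in control replicates 1 to 3 and 6.51, 5.48 and 6.55 CPM in pre-treated replicates 1 to 3. All 3 treated libraries were over 3 times any control, and control replicate 3 was the lowest of the controls. Over 6 libraries the fold was 5.43 (log2FC 2.44, SE 0.30, unadjusted p = 3.46e-05, FDR = 0.0778 by the edgeR quasi-likelihood test), and without control replicate 3 the gene passed (log2FC 2.31, SE 0.27, FDR = 0.00159). DESeq2, the exact test, the fit without a filter and the fit over both experiments also called it over 6 libraries. Its level in co-treatment was 2.91, 2.24 and 2.43 CPM in controls and 1.85, 1.48 and 2.90 CPM in treated libraries. The counting setting for strand is not given in the sources used here, and exons of TGFB2 overlap those of TGFB2-AS1 and TGFB2-OT1, so reads of these genes cannot be told apart.

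GREM1, a secreted BMP antagonist (chr15:33010205-33037307), measured 0.435, 0.0657 and 0.411 CPM in controls and 1.98, 1.37 and 3.02 CPM in pre-treated libraries. Every treated library was above every control, at low levels throughout (log2FC 2.79, SE 0.63, FDR = 0.320 over 6 libraries, log2FC 3.10, SE 0.64, FDR = 0.0111 without control replicate 3). Without control replicate 2 as well, which was the lowest library, its FDR was 0.0537. Its exons overlap those of GREM1-AS1. CTGF (chr6:132269316-132272512) had 1 count in the 3 controls together and 66 in the pre-treated libraries, a ratio of 44.9 with a 95% counting interval from 7.79 to 1801. Its call without control replicate 3 (log2FC 4.60, FDR 0.0217) was lost when control replicate 1 or 2 was left out too, at an FDR of up to 0.129.

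Of the mesenchymal markers, COL3A1 (log2FC 2.44, FDR 0.0443) and VIM (log2FC 2.42, FDR 0.0443) were called higher over the same 6 libraries, and 4 of 9 tested were higher without control replicate 3 (VIM, COL3A1, YAP1 and CD44), while PRRX1 stayed at or under 0.0751 CPM. YAP1, at 0.0544 to 0.0876 CPM in controls, passed the filter only through the treated libraries (0.963, 0.206 and 0.576 CPM). Only a higher call was possible for it. The other 5 tested (FN1, SNAI2, TWIST1, FOSL1 and COL1A1) were not called, and COL1A1 had a difference of the opposite sign without that library (log2FC -1.05, FDR 0.0567, treated libraries below both remaining controls). Noradrenergic GATA3 (log2FC -1.44, FDR 0.0126) and DBH (log2FC -1.72, FDR 0.0259) were lower without that library. Their part in the values of TGFB2, GREM1 and CTGF was not tested.

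The lower members divided by where control replicate 3 lay. For 5 of the 10 with an FDR below 0.05 without it (BMPR1B, SMAD3, SMAD9, SMURF1 and FSTL4) this control was above all treated libraries. For SKI, LTBP2 and LTBP3 it lay within the treated range, and for the receptors ACVR1 and BMPR2 it lay below all 3 treated libraries. The reads outside genes and the small RNA share given above separate the same control libraries, and their part in these values was not tested.

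BMPR1B, which had missed the threshold in co-treatment, measured 91.3, 93.3 and 87.7 CPM in controls and 60.3, 64.8 and 49.8 CPM in pre-treated libraries. The 3 controls lay close together and above every treated library (log2FC -0.61, SE 0.16, FDR = 0.320 over 6 libraries, log2FC -0.59, SE 0.13, FDR = 0.0141 over 5). SMAD9, the most abundant SMAD (chr13:37418968-37495024), showed the same order of groups, with 547, 496 and 413 CPM in controls and 318, 346 and 288 CPM after pre-treatment (log2FC -0.58, SE 0.18, FDR = 0.321 over 6 libraries, log2FC -0.65, SE 0.12, FDR = 0.00839 over 5). FSTL4 measured 8.25, 22.4 and 3.03 CPM in controls and 1.79, 2.92 and 2.83 CPM in pre-treated libraries. Control replicate 3 exceeded the highest treated library by little, and the log2FC was -2.12 over 6 libraries (FDR = 0.320) and -2.54 over 5 (FDR = 0.00411).

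SKI, a co-repressor that binds SMADs (chr1:2158827-2241652), measured 65.6, 97.9 and 20.4 CPM in control replicates 1 to 3 and 13.2, 18.8 and 21.2 CPM in pre-treated libraries. Control replicates 1 and 2 stood far above the other 4 libraries (log2FC -1.75, SE 0.48, FDR = 0.320 over 6 libraries, log2FC -2.13, SE 0.22, FDR = 0.00107 over 5). BMPR2, the type II BMP receptor (chr2:203241050-203432474), measured 219, 259 and 79.0 CPM in controls and 84.6, 99.99 and 95.5 CPM in pre-treated libraries. Here control replicate 3 was the lowest of the 6 (log2FC -0.95, SE 0.37, FDR = 0.393 over 6 libraries, log2FC -1.28, SE 0.12, FDR = 0.000981 over 5). ACVR1, a type I receptor for BMPs (chr2:158592763-158732842), had 39.1, 44.3 and 19.6 CPM in controls and 20.0, 22.0 and 22.0 CPM in treated libraries, with the same arrangement (log2FC -0.65, FDR 0.434 over 6 libraries, log2FC -0.90, FDR 0.00322 over 5).

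**Figure D4:**
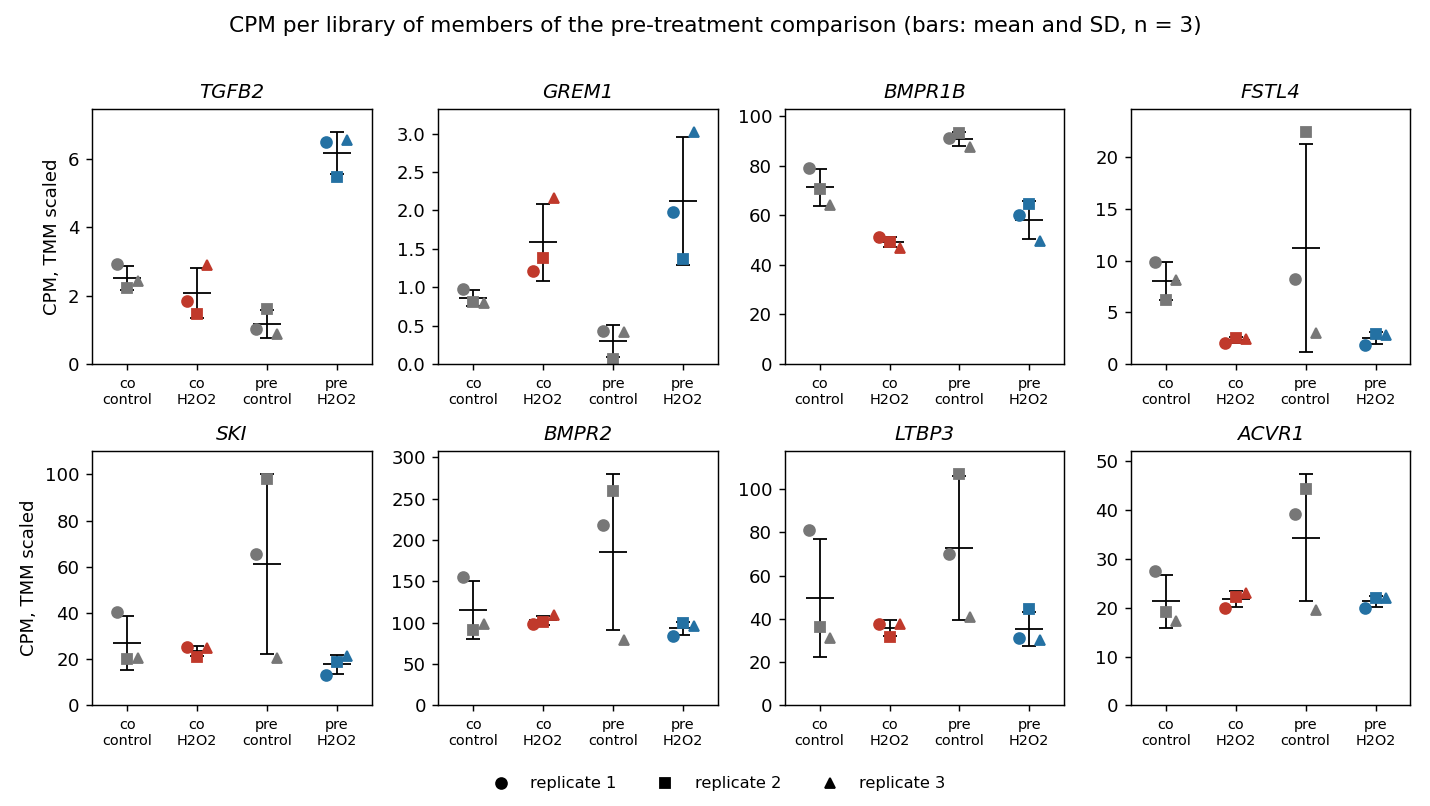
CPM per library of 8 members in both experiments, with replicate symbols, mean and SD (n = 3) and axes from 0. TGFB2, GREM1, BMPR1B and FSTL4 separate all pre-treated libraries from all 3 controls, while in SKI, BMPR2, LTBP3 and ACVR1 control replicate 3 (triangle) lies with or below the treated libraries.

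LTBP3, which carries latent TGF-beta, measured 69.9, 107 and 40.8 CPM in controls and 31.2, 44.6 and 30.5 CPM in pre-treated libraries, and LTBP2, a matrix protein of the same family that does not bind latent TGF-beta, 46.3, 53.0 and 21.4 against 18.2, 23.3 and 21.5 CPM. In both genes control replicates 1 and 2 were above all other libraries of the experiment. LTBP3 had a log2FC of -0.999 over 6 libraries (FDR = 0.328) and -1.25 over 5 (FDR = 0.00576), and its call was lost without control replicate 2 as well (FDR = 0.0558). LTBP2 had a log2FC of -0.90 over 6 libraries (FDR = 0.338) and -1.17 over 5 (FDR = 0.00184). SMAD3, the TGF-beta and activin SMAD, measured 84.1, 86.1 and 43.5 CPM in controls and 39.6, 42.4 and 41.5 CPM in pre-treated libraries, with control replicate 3 just above them (log2FC -0.76, FDR 0.331 over 6 libraries, log2FC -0.98, FDR 0.00118 over 5). The ubiquitin ligase SMURF1 followed the same order with smaller differences (80.0, 85.0 and 60.0 against 51.0, 54.2 and 53.3 CPM, log2FC -0.47, FDR 0.356 over 6 libraries, log2FC -0.57, FDR 0.00715 over 5), and its exons overlap those of TRRAP on the other strand, and those of LTBP3 also overlap another gene.

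The ID genes varied widely among the pre-treatment controls. ID1 measured 33.7, 22.9 and 54.0 CPM in controls and 39.2, 37.2 and 40.3 CPM in pre-treated libraries, ID2 128, 57.9 and 189 against 169, 147 and 189.7 CPM, and ID3 94.7, 63.7 and 153 against 99.3, 95.8 and 58.9 CPM. In these 3 genes control replicate 2 was the lowest control and control replicate 3 the highest, and the groups overlapped. Over 6 libraries none of them passed: ID1 had a log2FC of 0.10 (FDR 0.916), ID2 of 0.45 (FDR 0.680) and ID3 of -0.28 (FDR 0.777). Without control replicate 3, ID2 had an FDR of 0.0463 (log2FC 0.93), whereas ID1 (log2FC 0.53, FDR 0.0553) and ID3 (log2FC 0.17, FDR 0.645, of the opposite sign to its value over 6) did not pass. BAMBI measured 31.3, 28.0 and 45.5 CPM in controls and 48.6, 45.3 and 50.4 CPM in treated libraries, with control replicate 3 among the latter (log2FC 0.48, FDR 0.458 over 6 libraries, log2FC 0.77, FDR 0.00501 over 5). SMAD6 was above all controls in the pre-treated libraries (14.0, 5.87 and 12.9 against 15.8, 14.9 and 15.8 CPM, log2FC 0.52, FDR 0.561 over 6 libraries, log2FC 0.71, FDR 0.128 over 5), and SMAD7, GDF15 and INHBA overlapped between groups.

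**Figure D5:**
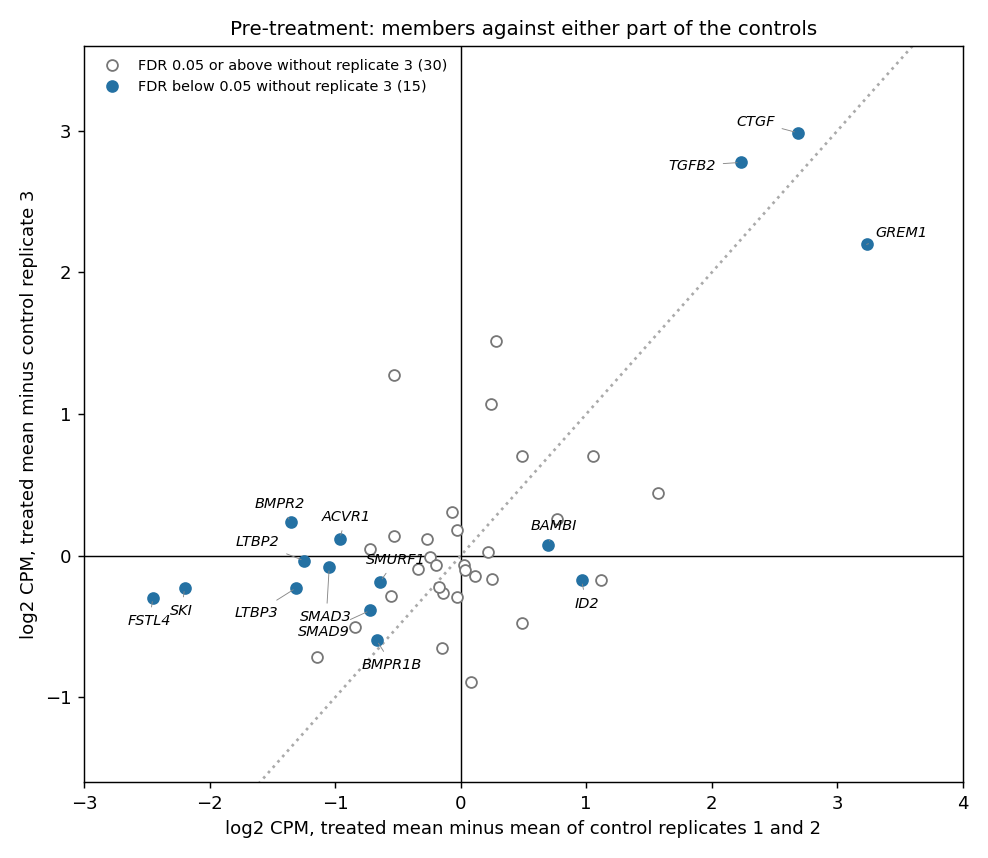
Pre-treated mean minus the mean of control replicates 1 and 2 (x axis) against pre-treated mean minus control replicate 3 (y axis), in log2 CPM, for the 45 members tested without replicate 3; filled points are the 15 with an FDR below 0.05 in that fit, and the dotted line marks equal differences. TGFB2, CTGF and GREM1 lie far above 0 on both axes, while SKI, FSTL4, BMPR2, LTBP2, LTBP3 and ACVR1 lie far to the left and near 0 on the y axis.

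Of the 82 further pathway genes, none of 68 tested was called by edgeR over the 6 pre-treatment libraries. In that fit 13 of the 68 had an unadjusted p below 0.05, against 2776 of all 24743 genes (11.2%). Without control replicate 3, 6 of 69 were called, 4 higher and 2 lower (8.70%, against 11.2% of all genes). The 10 with the smallest p in that fit included RNF111, the ubiquitin ligase Arkadia that degrades SKI and SKIL, at 87.4, 97.2 and 56.7 CPM in controls and 51.2, 52.1 and 43.7 CPM in treated libraries (log2FC -0.68, FDR 0.320 over 6 libraries, log2FC -0.84, FDR 0.00339 over 5). The co-receptor NEO1 (168, 185 and 94.6 against 84.9, 83.4 and 93.1 CPM, log2FC -0.74, FDR 0.328 over 6 libraries, log2FC -0.94, FDR 0.00152 over 5) had the same arrangement, with control replicates 1 and 2 high and control replicate 3 near the treated libraries. NODAL (log2FC -1.78), PMEPA1 (-0.70), ENG (-0.999), WWP1 (-0.66), ITGB6 (-1.35) and FURIN (-0.70) were lower too over 5 libraries. Over 6 libraries their log2FC ran from -1.48 to -0.44 with FDR values from 0.320 to 0.565. Control replicate 3 lay below every treated library for ENG (9.66 against 11.3 to 15.6 CPM) and WWP1 (17.6 against 19.1 to 21.8 CPM). For NODAL and PMEPA1 it lay above every treated library. The proteoglycan DCN, which binds TGF-beta, measured 0.599, 0.0876 and 0.609 CPM in controls and 3.56, 2.58 and 1.67 CPM in treated libraries, without overlap (log2FC 2.59, FDR 0.320 over 6 libraries, log2FC 2.95, FDR 0.0131 over 5), and FSTL3 was higher over 5 (log2FC 1.25, FDR 0.0314, against log2FC 0.80, FDR 0.491 over 6) with control replicate 3 inside the treated range.

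Whether a member responded differently to the schedules was tested by the difference of the 2 responses in 1 fit over all 12 libraries. None of 45 members passed (FDR below 0.05), beside 0.0287% of all 24407 genes. An unadjusted p below 0.05 was found for 9 of the 45, against 2183 of all 24407 genes (8.94%). TGFB2 came closest, with a response 2.69 higher on the log2 scale in pre-treatment (SE 0.42, FDR = 0.0600). Of the other 8, none of which passed, the log2 difference was -1.59 for SKI, -1.31 for GDF15, -1.06 for ID3, -0.98 for SMAD6 and -0.60 for SMAD7, and in the other direction 1.88 for GREM1, 1.81 for ID4 and 0.77 for INHBA, with FDR values from 0.407 to 0.544. Without pre-treatment control replicate 3, 5 members passed (11.1%, against 8.02% of all genes, 3.32% higher and 4.7% lower): TGFB2 (log2 difference 2.53, FDR = 0.00773) was higher in pre-treatment, and SKI (-1.99, FDR = 0.0111), BMPR2 (-1.18, FDR = 0.0169), ACVR1 (-0.98, FDR = 0.0249) and SMAD3 (-0.90, FDR = 0.0364) were lower. In that fit the 8 members called in co-treatment had differences from -1.11 to 0.66 and FDR values from 0.0586 upwards, so a difference in their response between the schedules was not shown.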

How the data were processed

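The members and gene lists were chosen with earlier results of these data known. The deposited files hold whole-number counts per gene symbol for each of 12 libraries. Per the labels and methods, the authors prepared stranded total RNA libraries, trimmed reads with cutadapt (2.10), checked them with FastQC (0.11.8), mapped them to hg19 with HISAT2 (2.1.0) and counted reads on genes with HTSeq (0.7.2). Entries that name no gene (40.0% to 59.9% per library) were left out. The annotation version and the strand setting are not given in the sources used here. Tables of the authors' own comparisons (fold changes, p-values) were deposited too and not used.

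Counts were tested with edgeR (4.0.16, R 4.3.3), TMM scaling and the quasi-likelihood test, with Benjamini-Hochberg adjustment over all genes that passed the filter (the CPM of 5 counts in the smallest library, 0.1813 in co-treatment and 0.1197 in pre-treatment, reached in a number of libraries equal to the size of the smaller group). Called means FDR below 0.05 with a log2FC beyond 0.6 in either direction in co-treatment and beyond 1 in pre-treatment. The difference between experiments was an interaction contrast over 12 libraries. Printed CPM share 1 TMM scaling over 12 libraries, and levels per kb use exon unions of GENCODE on hg19. Fully described members are those with FDR below 0.05 in any of the 4 fits, plus the 10 with the smallest p in co-treatment and in pre-treatment over 6 libraries, 22 in all. The other pathway genes named are those with FDR below 0.05 in co-treatment or in pre-treatment over 6 libraries and the 10 with the smallest p over 5. Some genes these rules select are not reported here. Scripts were tested on simulated data. Depth was 27576276 to 98287391 counts per library, so that 1 count equals 0.0104 to 0.0355 CPM. Alternatives were other scalings, filters and tests (DESeq2 1.42.0), a replicate block and leaving out each library.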

Additional observations from a re-analysis of the deposited data

How the results depend on the processing

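Without pre-treatment control replicate 3, 2 of 44 members changed sign in pre-treatment (BMP2 and ID3) and 5 of 45 in the difference between experiments (ACVR1B, TGFBR2, LTBP4, ID2 and TGFBI), none of them past the threshold in either fit. In co-treatment, 8 members were called, 5 with scaling by library size only, 0 in 1 fit over both experiments, 1 in that fit without pre-treatment control replicate 3 (added after the data were seen), and 1 to 8 when a library was left out. Other settings gave 8. In pre-treatment over 6 libraries, 0 members were called, 5 without a filter, 3 with the exact test, 4 with DESeq2, 2 in 1 fit over both experiments, and 0 to 8 when a library was left out, the 8 without control replicate 3. In pre-treatment over 5 libraries, 8 were called, 15 without a fold threshold, and 5 to 10 when a further library was left out, the 5 without control replicate 2. For the difference between experiments, 0 were called, 3 without a filter, 1 with DESeq2, and 0 to 5 when a library was left out: 1 without pre-treatment control replicate 2 and 5 without replicate 3. The cause of these shifts was not tested.

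Over all genes, 132 were called in co-treatment, 80 with library size only, 443 without a filter, 311 with the exact test, 304 with DESeq2, 3 in 1 fit over both experiments, 36 in that fit without pre-treatment control replicate 3, and 18 to 218 when a library was left out. In pre-treatment over 6 libraries the count of 6 became 1, 300, 240, 448 and 61 under the same settings and 0 to 2952 when a library was left out. Over 5 libraries 2952 became 6872 without a fold threshold and 1058 to 3540 when a further library was left out. For the difference, 7 became 272 without a filter, 103 with DESeq2 and 0 to 2058 when a library was left out. Scaling by library size moved the median log2FC over 5 libraries to -0.21 for all genes (399 called higher and 3013 lower) and to -0.28 for the members, and split the co-treatment calls into 57 higher and 23 lower.

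Same-numbered samples did not vary together: correlations of their deviations were -0.0785, -0.0786 and -0.0435 in co-treatment and -0.225, 0.0264 and -0.273 in pre-treatment. The highest value was 0.362, for pre-treatment control replicate 3 with treated replicate 1. With 3 libraries per group these correlations cannot exclude that replicate numbers pair the samples. With the number as a replicate block, 8 members were called in co-treatment, 0 in pre-treatment over 6 libraries, 10 over 5 and 0 for the difference; over all genes the counts of 6 and 7 both became 0. The lowest members had few counts, with 30 or fewer in all for each of the 5 that failed the filter everywhere. The part of depth in this was not tested.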

Other observations

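The separation of pre-treatment control replicates 1 and 2 from the other libraries covered many members. In 17 of 45 tested members (37.8%, against 28.4% of all genes tested) both were above the other 4 pre-treatment libraries, and in 5 (BMP6, BAMBI, ID1, ID2 and ID4; 11.1%, against 21.7%) both were below. In co-treatment, control replicate 1 was the highest of the 6 libraries in 21 of 45 members (46.7%, against 21.2% of all genes tested). These lists shared 14 genes, which is 66.7% of the 21 and 82.4% of the 17 (53.2% and 33.2% for the corresponding lists over all genes), among them ACVR1, BMPR2, SMAD3, SKI, LTBP2, LTBP3 and FSTL4. LTBP3 measured 80.9 CPM in co-treatment control replicate 1 and 36.5 and 31.2 CPM in replicates 2 and 3, and SKI 40.5 against 20.2 and 20.6 CPM. In co-treatment control replicate 1 reads outside genes per counted read were 0.370, against 0.285 and 0.284 in the other controls and 0.263 to 0.429 in the treated libraries, and small structured RNAs took 5.31% of counts, against 9.87% and 12.9% in the other controls and 5.04% to 13.0% in the treated libraries. The part of either value in the pattern was not tested. The pattern was noticed in these data, and no test was run on it.

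In co-treatment, further pathway genes had non-overlapping groups without passing the test. The ligand GDF10 measured 6.28, 4.95 and 5.03 CPM in controls and 2.95, 1.12 and 0.253 CPM in treated libraries (log2FC -1.99, FDR 0.210) and the co-repressor TGIF2 24.0, 27.3 and 23.8 against 18.7, 12.8 and 15.8 CPM (log2FC -0.67, FDR 0.101). These were named after their values were seen.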
